A study of Homo sapiens with 9 samples.

Results

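The aminoacyl-tRNA synthetases are described here in SW480, an established cell line from a human colorectal cancer, as 35 genes of the 41041 in the deposited expression table. They were chosen by gene symbol and not by a filter on their values, although earlier results of these data were known. Of them, 19 encode cytosolic enzymes and 16 encode mitochondrial enzymes, whose symbols end in 2. Poly(A) RNA was sequenced from 3 groups of 3 libraries, which the submitters call biological replicates. The first group received sulforaphane, an isothiocyanate from cruciferous vegetables, together with 5-fluorouracil, a pyrimidine analogue used in chemotherapy (SFN+5-FU), the second received sulforaphane alone at 25 µM (SFN), and the third received neither compound (control). All 3 groups, control included, were kept at 1% oxygen for 48 h, and the sources state 48 h also for the treatment without saying whether compounds and low oxygen ran over the same hours. The dose of 5-fluorouracil, and that of sulforaphane in the combination, are not stated in the labels. No normoxic cells and no cells on 5-fluorouracil alone are among these samples, so every difference below is one within hypoxic cells of 1 cell line, and the part of 5-fluorouracil alone cannot be told apart. Levels are in FPKM, that is, sequenced fragments scaled to the length of the transcript and to the total of the library.

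Each synthetase joins 1 amino acid to the tRNAs that carry it to the ribosome. Cytosolic and mitochondrial translation mostly use separate enzymes, both encoded in the nucleus, although GARS1 (glycine) and KARS1 (lysine) each supply an enzyme to both compartments from 1 gene. Several cytosolic enzymes sit in the multisynthetase complex on the scaffold proteins AIMP1, AIMP2 and EEF1E1. When amino acids run short, uncharged tRNA activates the kinase GCN2, and the transcription factor ATF4 then raises many cytosolic synthetase genes together with amino acid transporters and biosynthetic enzymes.

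ATF4 binds DNA as a dimer with C/EBP proteins at the element TGATGCAA. Because this element is a feature of the start regions that the choice of genes did not use, windows of 300 bases (250 before to 50 after each annotated start, RefSeq, build GRCh38.p14) were searched on both strands. Windows were found for 30 of the 35 genes, 16 cytosolic and 14 mitochondrial, and none was matched for LARS1, VARS1, YARS1, AARS2 or VARS2. TGATGCAA, or its reverse complement TTGCATCA, was in a window of 1.08% of all 27305 genes (0.866% of all 35116 windows). Among synthetases with a window it was found for 6 of the 16 cytosolic genes and 0 of the 14 mitochondrial ones. The looser form TGATGNAA, which includes every TGATGCAA, was found for 4.46% of all genes (3.62% of all windows). It added GARS1 among the cytosolic genes and YARS2 among the mitochondrial ones, and YARS2 rose with both treatments. The 7 cytosolic stretches are shown 5′ to 3′ on the strand of the gene with the match in capitals, since 5 of these genes fell with both treatments (AARS1, CARS1, GARS1, IARS1 and MARS1) while NARS1 and TARS1 were not called lower with either.
AARS1, chr16:70289675-70289704, minus strand: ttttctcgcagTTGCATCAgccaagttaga
CARS1, chr11:3057407-3057436, minus strand: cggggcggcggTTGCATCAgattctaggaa
GARS1, chr7:30594834-30594863, plus strand: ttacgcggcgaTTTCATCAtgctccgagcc
IARS1, chr9:92293692-92293721, minus strand: ttttcagcgcgTTGCATCAcctccgtgcgc
MARS1, chr12:57488053-57488082, plus strand: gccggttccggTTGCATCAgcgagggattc
NARS1, chr18:57621804-57621833, minus strand: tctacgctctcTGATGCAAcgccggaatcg
TARS1, chr5:33440956-33440985, plus strand: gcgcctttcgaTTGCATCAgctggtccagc
Relative to the annotated start, the matches lay 2 bases upstream in CARS1, 4 in MARS1, 13 in IARS1, 33 in GARS1 and 187 in AARS1, and 2 bases downstream in TARS1 and 14 in NARS1, counted to the first base of the match. A match describes the letters in the window. It does not show that a factor binds there.

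CACGTG, the E-box that MYC, HIF-1 and other basic helix-loop-helix factors can bind, was in a window of 8.77% of all genes (7.26% of all windows). Among synthetases with a window it was found for 1 of the 16 cytosolic genes (IARS1) and 3 of the 14 mitochondrial ones. The mitochondrial stretches are shown because MARS2 and EARS2 were called higher with SFN. YARS2, TARS2 and PARS2 were called higher with SFN as well and had windows without CACGTG, while AARS2 had no window. IARS1, the cytosolic gene with the E-box, fell with both treatments. CACGTG reads the same on both strands, and its matches do not overlap those of the ATF4 element.
MARS2, chr2:197705347-197705374, plus strand: tgcgcctctcaCACGTGctgtcagaacg
EARS2, chr16:23557349-23557376, minus strand: agggagaagccCACGTGtgctattccat
CARS2, chr13:110706502-110706529, minus strand: gctgggatgcaCACGTGcttcgctaaca
The E-box started 11 bases upstream of the annotated start in MARS2, 15 in EARS2 and 3 in CARS2. CARS2, the mitochondrial cysteine enzyme, was not called in either comparison, with log2 fold changes of 0.05 for SFN+5-FU and 0.12 for SFN.

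In the whole table, 12662 genes with a mean of at least 1 FPKM were tested, the 35 synthetases among them. The library labelled SFN replicate 2 resembled the SFN+5-FU libraries: over these genes its Pearson r was 0.993 with each of the 3, against 0.963 and 0.968 with SFN replicates 1 and 3, a description across genes that are not independent. In log2 level, 18 of 19 cytosolic and 13 of 16 mitochondrial synthetases were nearer in it to the SFN+5-FU mean than to the mean of SFN replicates 1 and 3, against 82.6% of all tested genes. It is kept under its label, and the calls without it are given beside those with it. The 7 colon epithelium markers examined were present in every library (EPCAM 114 to 144 FPKM), and of 6 markers of other cell types PTPRC was listed at 0 throughout while COL1A1 reached 1.99 FPKM and the others at most 0.13. The epithelial markers summed to 1707 to 1722 FPKM in SFN+5-FU libraries, 1766 to 2382 in SFN libraries and 2551 to 2595 in control libraries. Of the 7, 6 fell with SFN+5-FU and 4 with SFN, beside 28.0% and 22.5% of all tested genes lower. Without SFN replicate 2, 3 fell with SFN (all tested genes 26.9% lower), and KRT18 had a limma adjusted p of 0.0542. The markers of other cell types summed to 0.80 to 0.89 FPKM in SFN+5-FU libraries, 0.71 to 0.76 in SFN libraries and 1.67 to 2.14 in control libraries. The part of these markers in the results below was not tested.

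Cytosolic synthetase mRNAs stood above the mitochondrial ones. Averaged over all 9 libraries, the median cytosolic gene was at 15.7 FPKM (range 4.94 to 51.4) and the median mitochondrial gene at 4.79 FPKM (range 1.71 to 26.7). The summed cytosolic level was 398, 414 and 400 FPKM in SFN+5-FU libraries, 418, 407 and 411 FPKM in SFN libraries and 404, 405 and 401 FPKM in control libraries. The SFN+5-FU and control ranges of this sum overlapped, while all SFN libraries lay above all control libraries. The sum covers genes that moved in opposite directions. The mitochondrial total was 111, 109 and 107 FPKM in SFN+5-FU libraries, 125, 109 and 125 FPKM in SFN libraries and 105, 106 and 105 FPKM in control libraries. All treated libraries were above the controls, with SFN replicates 1 and 3 the highest. In SFN+5-FU libraries the median mitochondrial synthetase differed from its control mean by 0.0220 to 0.0703 on the log2 scale. The median of all tested genes differed by more, 0.0879 to 0.104. In SFN libraries the mitochondrial values were 0.242, 0.0716 and 0.230, against -0.000161, 0.105 and 0.0446 for all tested genes. Since whole cultures were sequenced, fewer cells making an mRNA and less of it per cell cannot be told apart.

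**Figure D1:**
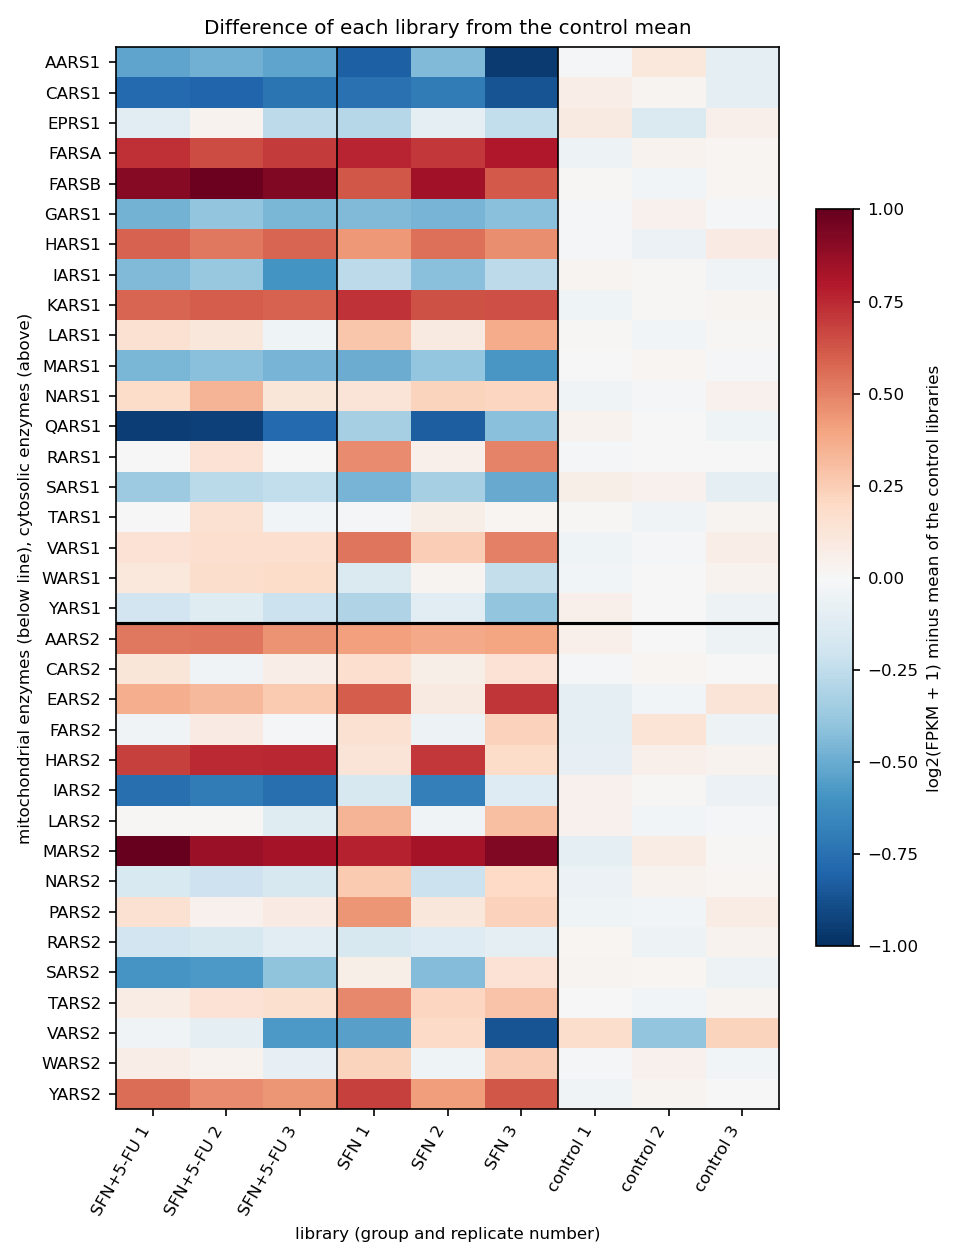
Difference of each library (columns, by group and replicate number) from the mean of the control libraries in log2(FPKM + 1), as colour, for the 19 cytosolic synthetases (above the thick line) and the 16 mitochondrial ones (below it). Blue rows such as CARS1 and GARS1 and red rows such as FARSA and MARS2 run through all 6 treated libraries, and in the column of SFN replicate 2 the rows QARS1, HARS2, IARS2 and SARS2 have the shade of the SFN+5-FU columns.

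With SFN against control, the question is what sulforaphane changes in hypoxic cells. The cytosolic enzymes split: 8 fell (AARS1, CARS1, GARS1, IARS1, MARS1, QARS1, SARS1 and YARS1), 7 rose (FARSA, FARSB, HARS1, KARS1, LARS1, RARS1 and VARS1) and 4 were not called (EPRS1, NARS1, TARS1 and WARS1). Of the mitochondrial enzymes, 6 rose (AARS2, EARS2, MARS2, PARS2, TARS2 and YARS2) and 0 fell. A call is a limma adjusted p under 0.05, and 50.0% of all tested genes were called, 27.5% higher and 22.5% lower, where 15 of 19 cytosolic and 6 of 16 mitochondrial enzymes were. The median log2 fold change was -0.12 for the cytosolic and 0.17 for the mitochondrial genes, against 0.05 for all tested genes. Without SFN replicate 2 the calls were 7 higher and 10 lower among cytosolic genes and 10 higher and 2 lower among mitochondrial ones, with 56.9% of all genes called (30.0% higher, 26.9% lower). The calls gained were EPRS1 (log2 fold change -0.26) and WARS1 (-0.19) in the cytosolic class. In the mitochondrial class they were HARS2 (0.16), LARS2 (0.32), NARS2 (0.23), WARS2 (0.23), IARS2 (-0.15) and VARS2 (-0.70).

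With SFN+5-FU against control, 5 cytosolic enzymes rose (FARSA, FARSB, HARS1, KARS1 and NARS1) and 7 fell (AARS1, CARS1, GARS1, IARS1, MARS1, QARS1 and SARS1). Of the mitochondrial enzymes, 4 rose (AARS2, HARS2, MARS2 and YARS2) and 2 fell (IARS2 and SARS2). In this comparison 66.2% of all tested genes were called, 38.3% higher and 28.0% lower, where 12 of 19 cytosolic and 6 of 16 mitochondrial enzymes were. The median log2 fold change was 0.04 for the cytosolic and 0.03 for the mitochondrial genes, against 0.10 for all tested genes, and both class medians turned negative under other scalings: the cytosolic one to -0.14 with quantile normalization, -0.0837 without mitochondrially encoded transcripts and -0.16 with a GC and length correction, the mitochondrial one to -0.0691 without those transcripts. Both comparisons use the same control libraries, so calls made in both are not independent of each other. SFN replicate 2 also enters the spread used here, which is estimated over all libraries: in a fit without it, 7 cytosolic enzymes were called higher and 8 lower, and 5 mitochondrial enzymes higher and 4 lower, with 74.7% of all genes called (43.4% higher, 31.3% lower). The calls gained there were VARS1 (0.16), WARS1 (0.15), YARS1 (-0.18), EARS2 (0.32), NARS2 (-0.17) and RARS2 (-0.15), given as log2 fold changes.

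**Figure D2:**
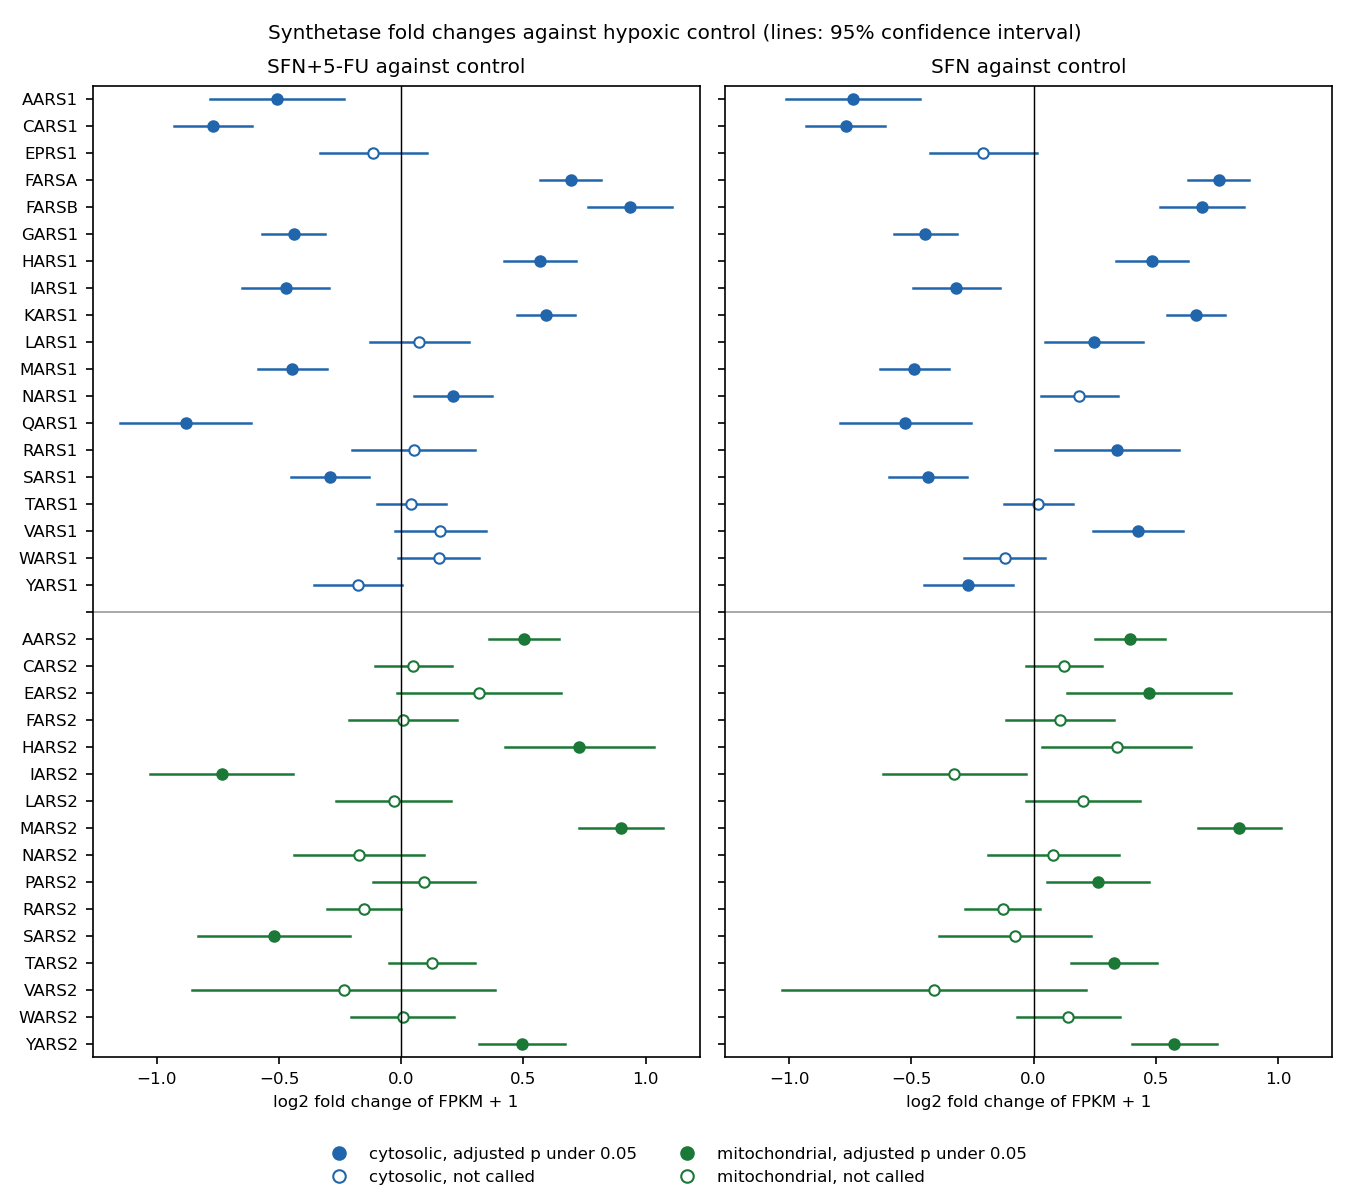
Log2 fold change of FPKM + 1 with its 95% confidence interval (lines) for each of the 35 synthetases in SFN+5-FU against control (left) and SFN against control (right), cytosolic genes above the grey line and mitochondrial genes below it. Filled points have an adjusted p under 0.05: 12 cytosolic and 6 mitochondrial genes on the left, 15 and 6 on the right.

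Among cytosolic enzymes that fell, CARS1, which charges cysteine tRNA, had 6.61, 6.52 and 6.86 FPKM in SFN+5-FU libraries, 6.8, 7.03 and 6.19 FPKM in SFN libraries and 12.6, 12.3 and 11.3 FPKM in control libraries. Every treated library was at 7.03 FPKM or lower and every control library at 11.3 FPKM or higher. In log2 fold change this was -0.77 (SE 0.0712, adjusted p = 3.46e-05) for SFN+5-FU and -0.77 (SE 0.0712, adjusted p = 6.08e-05) for SFN. AARS1, the alanine enzyme, had 11.8, 12.2 and 11.8 FPKM in SFN+5-FU libraries, 9.43, 12.5 and 8.43 FPKM in SFN libraries and 17.1, 18.8 and 16.3 FPKM in control libraries. Control libraries were again above all 6 treated ones, and SFN replicate 2, at 12.5 FPKM, stood beside the SFN+5-FU libraries and above the other SFN libraries. The log2 fold change of AARS1 was -0.51 (SE 0.121, adjusted p = 0.00502) for SFN+5-FU and -0.74 (SE 0.121, adjusted p = 0.001095) for SFN, and the SFN value was -0.89 without SFN replicate 2.

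QARS1, the glutamine enzyme of the multisynthetase complex, had 22.04, 22.1 and 24.8 FPKM in SFN+5-FU libraries, 34.2, 23.9 and 32.01 FPKM in SFN libraries and 44.3, 43.3 and 41.97 FPKM in control libraries. Control libraries were the highest, SFN replicates 1 and 3 were intermediate, and SFN replicate 2 lay within the SFN+5-FU range. This gave a log2 fold change of -0.88 (SE 0.119, adjusted p = 2.18e-04) for SFN+5-FU and -0.53 (SE 0.119, adjusted p = 0.00565) for SFN, and the SFN value was -0.37 without SFN replicate 2. MARS1, the methionine enzyme, averaged 25.6 ± 0.477 FPKM in SFN+5-FU, 24.9 ± 1.74 FPKM in SFN and 35.3 ± 0.398 FPKM in control libraries (SD, n = 3 each), with log2 fold changes of -0.44 (SE 0.0623, adjusted p = 2.73e-04) for SFN+5-FU and -0.49 (SE 0.0623, adjusted p = 2.96e-04) for SFN. IARS1 (isoleucine) fell too, with -0.47 and -0.32 (adjusted p = 7.19e-04 and 0.00913), and so did SARS1 (serine), with -0.29 and -0.43 (adjusted p = 0.00531 and 0.00105), each pair in the order SFN+5-FU, SFN.

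The enzyme for phenylalanine is built from the subunits FARSA and FARSB, and both mRNAs rose with both treatments. FARSA had 50.97, 48.4 and 50.02 FPKM in SFN+5-FU libraries, 52.4, 50.3 and 53.6 FPKM in SFN libraries and 29.3, 31.2 and 30.8 FPKM in control libraries. FARSB had 9.55, 10.1 and 9.67 FPKM in SFN+5-FU libraries, 7.63, 9.05 and 7.59 FPKM in SFN libraries and 4.66, 4.51 and 4.69 FPKM in control libraries. For both subunits all 6 treated libraries lay above all control libraries, although FARSA was several times more abundant than FARSB throughout. The log2 fold change of FARSA was 0.69 (SE 0.0558, adjusted p = 1.87e-05) for SFN+5-FU and 0.76 (SE 0.0558, adjusted p = 2.26e-05) for SFN. For FARSB it was 0.94 (SE 0.0758, adjusted p = 1.89e-05) for SFN+5-FU and 0.69 (SE 0.0758, adjusted p = 1.41e-04) for SFN.

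The genes that serve both compartments moved in opposite directions. KARS1, the most abundant synthetase mRNA here, had 56.4, 57.3 and 56.9 FPKM in SFN+5-FU libraries, 62.2, 58.7 and 58.9 FPKM in SFN libraries and 36.3, 37.8 and 38.1 FPKM in control libraries. GARS1 had 10.3, 10.98 and 10.5 FPKM in SFN+5-FU libraries, 10.6, 10.4 and 10.7 FPKM in SFN libraries and 14.5, 15.2 and 14.5 FPKM in control libraries. In KARS1 the treated libraries were all above the controls, in GARS1 all below. KARS1 rose by 0.59 (SE 0.0526, adjusted p = 2.83e-05) on the log2 scale with SFN+5-FU and by 0.67 (SE 0.0526, adjusted p = 3.05e-05) with SFN, while the log2 fold change of GARS1 was -0.44 (SE 0.0572, adjusted p = 1.84e-04) and -0.44 (SE 0.0572, adjusted p = 3.12e-04) in the same order. HARS1, the histidine enzyme, averaged 12.9 ± 0.303 FPKM in SFN+5-FU, 12.2 ± 0.561 FPKM in SFN and 8.41 ± 0.484 FPKM in control libraries (SD, n = 3 each), with log2 fold changes of 0.57 (SE 0.0653, adjusted p = 9.93e-05) for SFN+5-FU and 0.48 (SE 0.0653, adjusted p = 3.83e-04) for SFN.

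Calls of RARS1, LARS1 and YARS1 with SFN depended on single libraries. RARS1 (arginine) had 25.9, 28.7 and 25.9 FPKM in SFN+5-FU libraries, 36.3, 26.8 and 36.8 FPKM in SFN libraries and 25.7, 25.9 and 25.9 FPKM in control libraries. SFN replicates 1 and 3 were the highest, and the other 7 libraries lay between 25.7 and 28.7 FPKM. Its rise with SFN, a log2 fold change of 0.34 (SE 0.112, adjusted p = 0.0303), was 0.49 without SFN replicate 2, and with SFN+5-FU the value was 0.05 (adjusted p = 0.702). The call with SFN was lost in fits without 1 of 5 other libraries, at an adjusted p of 0.0792 without control replicate 1, 0.0751 without control replicate 2, 0.0673 without control replicate 3, 0.0849 without SFN replicate 1 and 0.0982 without SFN replicate 3. LARS1 (leucine), at a log2 fold change of 0.25 with SFN (adjusted p = 0.0443), lost its call as well, with adjusted p = 0.1002 without control replicate 1, 0.117 without control replicate 2, 0.0859 without control replicate 3, 0.0878 without SFN replicate 1, 0.136 without SFN replicate 3, 0.0591 without SFN+5-FU replicate 1 and 0.0646 without SFN+5-FU replicate 2. YARS1 (tyrosine), at -0.27 (adjusted p = 0.0217), lost it at adjusted p values of 0.0799 without control replicate 1, 0.0615 without control replicate 2 and 0.0678 without SFN replicate 3. VARS1 (valine) rose with SFN by 0.43 (SE 0.0823, adjusted p = 0.00253) on the log2 scale and kept its call whichever 1 library was left out.

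The remaining cytosolic genes moved little. NARS1 (asparagine) had log2 fold changes of 0.21 (SE 0.0707, adjusted p = 0.0244) for SFN+5-FU, a call, and 0.19 (SE 0.0707, adjusted p = 0.051) for SFN, which was not called. Its call with SFN+5-FU was lost at an adjusted p of 0.0808 without control replicate 1, 0.0681 without control replicate 2 and 0.104 without SFN+5-FU replicate 2, and NARS1 was called with SFN without SFN replicate 1 (adjusted p = 0.0448) or SFN+5-FU replicate 2 (adjusted p = 0.0421). TARS1 (threonine), among the more abundant synthetases, averaged 40.3 ± 2.799 FPKM in SFN+5-FU, 39.6 ± 0.991 FPKM in SFN and 39.1 ± 0.795 FPKM in control libraries (SD, n = 3 each), and its log2 fold changes of 0.04 and 0.02 were not called. EPRS1, a fused enzyme for glutamate and proline, had -0.11 and -0.21, and WARS1 (tryptophan), which interferon gamma is known to induce, had 0.15 and -0.12, both in the order SFN+5-FU, SFN and not called.

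Grouped by role, and beside 38.3% of all tested genes higher and 28.0% lower with SFN+5-FU and 27.5% higher and 22.5% lower with SFN, 13 cytosolic synthetases listed as reported ATF4 targets gave 1 higher and 6 lower with SFN+5-FU (median log2 fold change -0.18) and 2 higher and 7 lower with SFN (median -0.27). The other 6 cytosolic genes (FARSA, FARSB, HARS1, KARS1, QARS1 and RARS1) gave 4 higher and 1 lower with SFN+5-FU (median 0.58) and 5 higher and 1 lower with SFN (median 0.58). The single decrease among those 6 was QARS1. Without SFN replicate 2 the 13 gave 3 higher and 7 lower with SFN+5-FU (all tested genes 43.4% and 31.3%). With SFN they then gave 2 higher and 9 lower (all tested genes 30.0% and 26.9%). The list of ATF4 targets was drawn up from general knowledge with earlier results of these data known, so the counts describe it and no test of the list was made. Of the 7 cytosolic genes whose matches are shown above, 5 were lower and NARS1 was higher with SFN+5-FU (all tested genes 28.0% and 38.3%). With SFN the same 5 were lower and 0 higher (all tested genes 22.5% and 27.5%). The mitochondrial gene YARS2, which like GARS1 matched only the looser TGATGNAA, was called higher with both treatments. Its log2 fold changes were 0.49 for SFN+5-FU and 0.58 for SFN. SARS1 and QARS1 fell with both treatments and had no match in their windows.

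ATF4 itself had 154, 164 and 174 FPKM in SFN+5-FU libraries, 71.99, 155 and 86.99 FPKM in SFN libraries and 136, 135 and 133 FPKM in control libraries. SFN replicates 1 and 3 were the lowest, while SFN replicate 2 was level with the SFN+5-FU group. The difference was not called in either comparison, with log2 fold changes of 0.28 (SE 0.225, adjusted p = 0.299) for SFN+5-FU and -0.44 (SE 0.225, adjusted p = 0.132) for SFN. Without SFN replicate 2 the SFN value was -0.76 (adjusted p = 8.50e-05) and the SFN+5-FU value 0.28 (adjusted p = 0.00619). Of the 11 tested genes of a list of ATF4 and its other reported targets, 3 rose and 6 fell with SFN+5-FU (median -0.94), and 0 rose and 7 fell with SFN (median -0.77), where all tested genes gave 38.3% higher and 28.0% lower with SFN+5-FU and 27.5% higher and 22.5% lower with SFN. Without SFN replicate 2 these counts were 4 and 7 with SFN+5-FU (all tested genes 43.4% and 31.3%) and 0 and 9 with SFN (30.0% and 26.9%). ASNS, which makes asparagine, had 9.08, 10.5 and 10.1 FPKM in SFN+5-FU libraries, 5.7, 8.91 and 5.12 FPKM in SFN libraries and 26.1, 28.4 and 22.4 FPKM in control libraries, with all treated libraries below all control libraries. DDIT3, a stress-induced transcription factor, had 44.4, 56.5 and 58.03 FPKM in SFN+5-FU libraries, 15.2, 45.6 and 15.1 FPKM in SFN libraries and 26.1, 27.5 and 24.7 FPKM in control libraries. SFN replicate 2 and the SFN+5-FU libraries were the highest for DDIT3 and SFN replicates 1 and 3 the lowest. The log2 fold change of ASNS was -1.29 (SE 0.167, adjusted p = 1.84e-04) for SFN+5-FU and -1.84 (SE 0.167, adjusted p = 5.56e-05) for SFN, and that of DDIT3 was 0.98 (SE 0.3499, adjusted p = 0.03204) and -0.24 (SE 0.3499, adjusted p = 0.592). DDIT3 was called lower with SFN without SFN replicate 2, at -0.75 (adjusted p = 3.87e-04). Annotated exons of DDIT3 and MARS1 overlap by 62 bases on opposite strands.

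**Figure D3:**
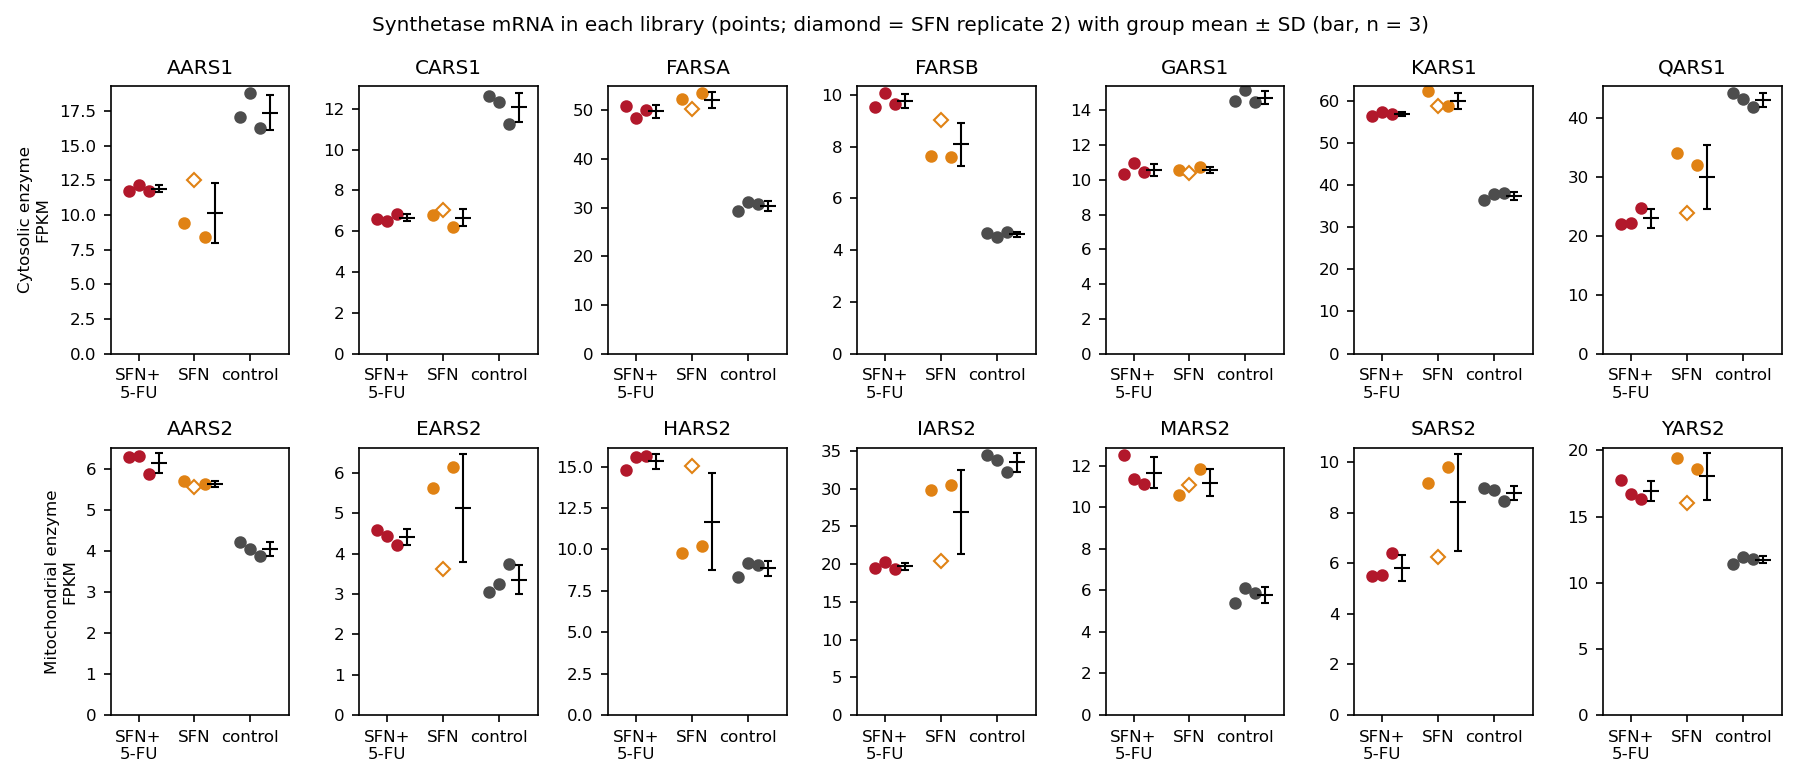
FPKM in each library (points) with the group mean and SD (bar, n = 3) for 7 cytosolic synthetases (top) and 7 mitochondrial ones (bottom), with SFN replicate 2 as an open diamond. All treated libraries lie to one side of the controls for AARS1, CARS1, FARSA, FARSB, GARS1, KARS1, QARS1, AARS2, HARS2, IARS2, MARS2 and YARS2, but not for EARS2 and SARS2. Most of these genes were picked for large called fold changes, which largely set this separation. Its share over all tested genes was not computed. Of those genes, 66.2% were called with SFN+5-FU and 50.0% with SFN. For QARS1, EARS2, HARS2, IARS2 and SARS2, among others, the diamond lies apart from the other SFN points.

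Among mitochondrial enzymes that rose with both treatments, MARS2, which charges the methionine tRNA of mitochondria, had 12.5, 11.4 and 11.1 FPKM in SFN+5-FU libraries, 10.6, 11.1 and 11.9 FPKM in SFN libraries and 5.38, 6.13 and 5.85 FPKM in control libraries. All treated libraries were at 10.6 FPKM or higher and all controls at 6.13 FPKM or lower. In log2 fold change the rise was 0.90 (SE 0.0758, adjusted p = 2.22e-05) for SFN+5-FU and 0.84 (SE 0.0758, adjusted p = 5.35e-05) for SFN. YARS2 (tyrosine) had 17.8, 16.7 and 16.3 FPKM in SFN+5-FU libraries, 19.5, 16.1 and 18.6 FPKM in SFN libraries and 11.5, 11.95 and 11.8 FPKM in control libraries, and AARS2 (alanine) had 6.28, 6.3 and 5.87 FPKM in SFN+5-FU libraries, 5.71, 5.55 and 5.64 FPKM in SFN libraries and 4.21, 4.04 and 3.88 FPKM in control libraries. The treated and control libraries did not overlap for either gene. YARS2 rose by 0.49 (SE 0.0776, adjusted p = 5.21e-04) on the log2 scale with SFN+5-FU and 0.58 (SE 0.0776, adjusted p = 3.82e-04) with SFN, and AARS2 by 0.50 (SE 0.0632, adjusted p = 1.56e-04) and 0.40 (SE 0.0632, adjusted p = 9.29e-04).

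IARS2, SARS2, HARS2 and EARS2 had SFN libraries that did not lie together. IARS2 (isoleucine), the most abundant mitochondrial synthetase mRNA, had 19.5, 20.3 and 19.4 FPKM in SFN+5-FU libraries, 29.8, 20.5 and 30.5 FPKM in SFN libraries and 34.5, 33.8 and 32.2 FPKM in control libraries. SARS2 (serine) had 5.51, 5.55 and 6.4 FPKM in SFN+5-FU libraries, 9.19, 6.24 and 9.83 FPKM in SFN libraries and 8.97, 8.91 and 8.45 FPKM in control libraries. For both, SFN replicates 1 and 3 were nearer to the controls, and SFN replicate 2 was at the low level of the SFN+5-FU libraries. The log2 fold change with SFN+5-FU was -0.73 (SE 0.1298, adjusted p = 9.93e-04) for IARS2 and -0.52 (SE 0.138, adjusted p = 0.00846) for SARS2. With SFN neither was called, at -0.33 (SE 0.1298, adjusted p = 0.0624) and -0.07 (SE 0.138, adjusted p = 0.673). IARS2 was called lower with SFN when any 1 of the SFN libraries was left out (adjusted p = 0.0365 without SFN replicate 1, 0.03105 without SFN replicate 2 and 0.0329 without SFN replicate 3).

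HARS2 (histidine) had 14.8, 15.6 and 15.6 FPKM in SFN+5-FU libraries, 9.78, 15.1 and 10.2 FPKM in SFN libraries and 8.33, 9.18 and 9.07 FPKM in control libraries. SFN replicate 2 and the SFN+5-FU libraries were high, and SFN replicates 1 and 3 stood just above the controls. In log2 fold change HARS2 was at 0.73 (SE 0.135, adjusted p = 0.00129) for SFN+5-FU, a call, and 0.34 (SE 0.135, adjusted p = 0.0614) for SFN, not a call. It was called with SFN when any 1 of the SFN libraries was left out (adjusted p = 0.0236 without SFN replicate 1, 0.0459 without SFN replicate 2 and 0.0493 without SFN replicate 3). EARS2, which in human mitochondria charges the tRNAs for glutamate and, as an intermediate, for glutamine, had 4.6, 4.43 and 4.22 FPKM in SFN+5-FU libraries, 5.63, 3.62 and 6.14 FPKM in SFN libraries and 3.06, 3.26 and 3.75 FPKM in control libraries. SFN replicate 2 lay within the control range and the other SFN libraries above it. EARS2 rose with SFN by 0.47 (SE 0.149, adjusted p = 0.02604) on the log2 scale, with 0.66 without SFN replicate 2, and the call was lost at an adjusted p of 0.0876 without control replicate 1, 0.0727 without control replicate 2, 0.0703 without SFN replicate 1 and 0.0861 without SFN replicate 3. With SFN+5-FU its value was 0.32 (SE 0.149, adjusted p = 0.0859), not a call.

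TARS2 (threonine) and PARS2 (proline) rose with SFN, with log2 fold changes of 0.33 (SE 0.0781, adjusted p = 0.00738) and 0.26 (SE 0.09297, adjusted p = 0.0403), and were not called with SFN+5-FU, at 0.13 and 0.09. The PARS2 call did not hold when any 1 library other than SFN replicate 2 was left out, with adjusted p = 0.122 without control replicate 1, 0.109 without control replicate 2, 0.0516 without control replicate 3, 0.102 without SFN replicate 1, 0.0654 without SFN replicate 3, 0.0584 without SFN+5-FU replicate 1, 0.0587 without SFN+5-FU replicate 2 and 0.06005 without SFN+5-FU replicate 3, and its log2 fold change was 0.17 without SFN replicate 1. VARS2 (valine) varied most among replicates: it had 2.86, 2.7 and 1.65 FPKM in SFN+5-FU libraries, 1.71, 3.51 and 1.17 FPKM in SFN libraries and 3.46, 2.01 and 3.6 FPKM in control libraries, and it was not called in either comparison. FARS2, LARS2, NARS2, RARS2 and WARS2 (phenylalanine, leucine, asparagine, arginine and tryptophan) were not called in either comparison, with log2 fold changes from -0.17 to 0.01 for SFN+5-FU and from -0.13 to 0.20 for SFN.

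Cytosolic and mitochondrial genes were paired for the 13 amino acids whose gene symbols differ only in the final digit. Phenylalanine (FARSA and FARSB with FARS2), glutamate (EPRS1 with EARS2) and proline (EPRS1 with PARS2) were not paired here. With SFN, the cytosolic gene fell and the mitochondrial gene rose for alanine, methionine and tyrosine, and no pair was called in the same direction. The tyrosine pair rests on the YARS1 call, which single libraries decide. With SFN+5-FU this held for alanine and methionine, while both histidine genes rose and both isoleucine and both serine genes fell. More pairs were called without SFN replicate 2. SFN then also gave both histidine genes (0.45 for HARS1 and 0.16 for HARS2) and both leucine genes (0.33 for LARS1 and 0.32 for LARS2) called higher, and both isoleucine genes (-0.26 for IARS1 and -0.15 for IARS2) called lower. Calls in opposite directions were then made with SFN for alanine, methionine, tyrosine, tryptophan and valine, of which valine alone had the cytosolic gene higher. With SFN+5-FU they were then made for alanine, methionine, tyrosine and asparagine, the last with the cytosolic gene higher. The FPKM of MARS1 was 2.03 to 2.31 times that of MARS2 in SFN+5-FU libraries and 1.96 to 2.41 times in SFN libraries, against 5.83 to 6.53 times in control libraries. For AARS1 over AARS2 the ratio was 1.87 to 2.00 in SFN+5-FU libraries and 1.495 to 2.26 in SFN libraries, against 4.06 to 4.64 in control libraries. YARS1 over YARS2 was 0.63 to 0.71 in SFN+5-FU libraries and 0.52 to 0.74 in SFN libraries, against 1.06 to 1.17 in control libraries. In these 3 pairs the ratio in every treated library, SFN replicate 2 included, was below that in every control library. The 3 pairs were picked for their opposite calls with SFN, which largely set this separation. It was also seen for CARS1 over CARS2, at 1.03 to 1.27 in treated and 2.125 to 2.41 in control libraries. For TARS1 over TARS2 it was narrow (at most 6.05 against at least 6.07). RARS1 over RARS2 was separated the other way, at 11.76 or more in treated and 11.14 or less in control libraries. The remaining pairs overlapped. The ratios are given as a description and were not tested.

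**Figure D4:**
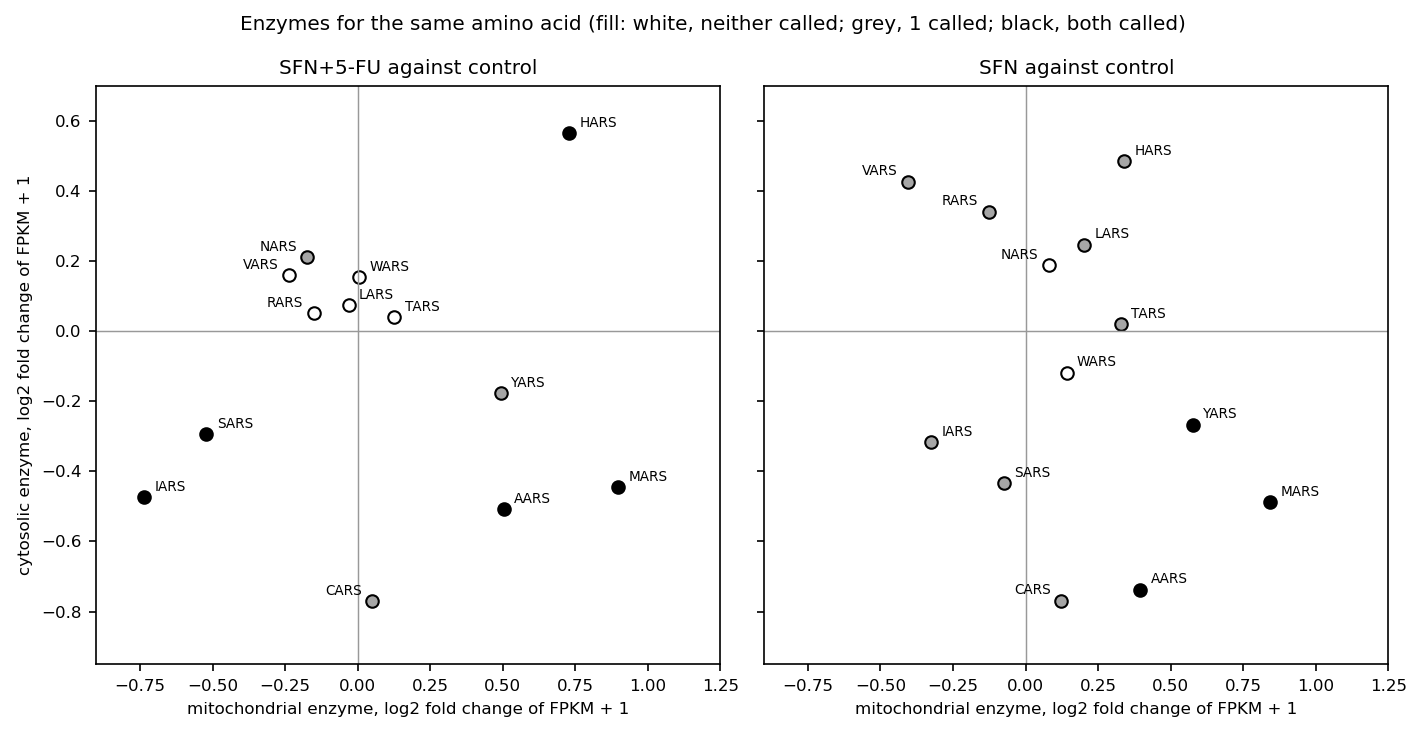
Log2 fold change of FPKM + 1 of the cytosolic enzyme (vertical axis) against that of the mitochondrial enzyme (horizontal axis). The 13 amino acids shown have gene symbols that differ only in the final digit, and points are labelled by the shared letters. Panels show SFN+5-FU against control (left) and SFN against control (right). Black points have both genes called, grey points 1 and white points neither, and AARS and MARS lie at the lower right in both panels.

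HARS1 and HARS2 are neighbours on chromosome 5 and are read away from each other. Their annotated RefSeq starts (GRCh38.p14) are at 140691370 on the minus strand for HARS1 and 140691455 on the plus strand for HARS2, with 84 bases between them. In GENCODE release 29, 402 bases of their exons overlap on opposite strands. The libraries mark the strand of the RNA, per the labels' protocols, but whether strand was used in counting is not stated, so the split of reads between HARS1 and HARS2 is uncertain. In all, 14 of the 35 genes share exon bases with another gene in that annotation, 9 of them at least 100 bases, and for these the level is uncertain in the same way: CARS1, HARS1, WARS1, YARS1, AARS2, EARS2, HARS2, SARS2 and WARS2. SARS2 shares 1492 bases with a gene model on its own strand.

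Compared directly, SFN+5-FU against SFN gave 0 calls among the 35 synthetases, with limma, where 0.00790% of all tested genes (1 gene, an ID without a symbol) were called. At an unadjusted p under 0.05 there were 9 synthetases, against 31.4% of all tested genes, and the smallest adjusted p of a synthetase was 0.134. This depended on SFN replicate 2. Without it, leaving 2 SFN libraries, 51.2% of all genes were called, 29.8% higher and 21.4% lower. Among cytosolic enzymes 5 were then higher with SFN+5-FU (AARS1, FARSB, SARS1, WARS1 and YARS1) and 5 lower (IARS1, LARS1, QARS1, RARS1 and VARS1). Among mitochondrial enzymes 1 was higher (HARS2) and 9 were lower (EARS2, IARS2, LARS2, NARS2, PARS2, SARS2, TARS2, WARS2 and YARS2). The largest of these log2 fold changes were -0.63 for SARS2 (adjusted p = 1.81e-04), -0.59 for IARS2 (adjusted p = 4.34e-05), 0.57 for HARS2 (adjusted p = 1.09e-04) and -0.51 for QARS1 (adjusted p = 2.70e-04).

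The 7 enzymes of the multisynthetase complex moved in both directions. Of all tested genes, 38.3% were higher and 28.0% lower with SFN+5-FU, and 27.5% higher and 22.5% lower with SFN. With SFN+5-FU KARS1 rose and IARS1, MARS1 and QARS1 fell, and with SFN KARS1, LARS1 and RARS1 rose and the same 3 fell. Its scaffold mRNAs lay above the controls in every treated library. EEF1E1 had 21.04, 20.2 and 19.3 FPKM in SFN+5-FU libraries, 13.8, 17.8 and 17.6 FPKM in SFN libraries and 9.41, 7.76 and 10.1 FPKM in control libraries, and AIMP2 had 33.7, 31.3 and 31.97 FPKM in SFN+5-FU libraries, 42.8, 32.4 and 44.6 FPKM in SFN libraries and 25.96, 27.2 and 27.2 FPKM in control libraries. For AIMP2 SFN replicate 2 was below the other SFN libraries. With SFN+5-FU the log2 fold change was 1.08 (SE 0.116, adjusted p = 7.07e-05) for EEF1E1, 0.50 (SE 0.114, adjusted p = 0.004099) for AIMP1 and 0.26 (SE 0.108, adjusted p = 0.0556) for AIMP2, the last of which was not called here but was in the fit without SFN replicate 2 (adjusted p = 6.61e-04). With SFN all 3 rose, by 0.78, 0.57 and 0.55 on the log2 scale (adjusted p = 6.07e-04, 0.00293 and 0.0028).

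Partners of the mitochondrial enzymes were examined in the same way. The counts stand beside 38.3% of all tested genes higher and 28.0% lower with SFN+5-FU, and 27.5% higher and 22.5% lower with SFN. Of the 4 genes for the amidotransferase that corrects the glutamine tRNA (GATB, GATC and QRSL1) and for the formyltransferase of the initiator methionine tRNA (MTFMT), 1 rose with SFN+5-FU (GATC) and 2 rose with SFN (GATC and QRSL1). Without SFN replicate 2 all 4 rose with SFN (all tested genes 30.0% higher and 26.9% lower). GATC then rose and GATB fell with SFN+5-FU (all tested genes 43.4% higher and 31.3% lower). GATC had 17.8, 18.4 and 17.5 FPKM in SFN+5-FU libraries, 10.8, 18.6 and 12.8 FPKM in SFN libraries and 8.55, 9.18 and 9.5 FPKM in control libraries, and SFN replicate 2 stood with the SFN+5-FU libraries. Its log2 fold change was 0.91 (SE 0.155, adjusted p = 8.35e-04) for SFN+5-FU and 0.55 (SE 0.155, adjusted p = 0.0166) for SFN, and the SFN value was 0.34 without SFN replicate 2. Of 4 mitochondrial elongation factors, TUFM and GFM1 rose with SFN+5-FU, and TUFM, TSFM, GFM1 and GFM2 rose with SFN, by 0.21 to 0.58 on the log2 scale. Of 4 cytosolic elongation factor genes, EEF1B2 rose and EEF1G fell with both treatments, and EEF1A1 was called lower with SFN+5-FU without SFN replicate 2 (-0.18, adjusted p = 0.00467).

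Steps before and beside charging were also measured. TRNT1, which adds the CCA end that synthetases use, rose by 0.42 with SFN+5-FU and 0.49 with SFN on the log2 scale (adjusted p = 0.00559 and 0.00366). XPOT, which exports tRNA from the nucleus, had log2 fold changes of -0.42 with SFN+5-FU and -0.31 with SFN (adjusted p = 0.00148 and 0.01002), both decreases. EIF2AK4, the gene for the uncharged tRNA sensor GCN2, fell with SFN+5-FU at a log2 fold change of -0.34 (SE 0.0962, adjusted p = 0.0115) and was not called with SFN at -0.11. GCN1, its partner, was not called in either comparison, at -0.19 for SFN+5-FU and 0.12 for SFN. It was called in both without SFN replicate 2, lower with SFN+5-FU (-0.19, adjusted p = 0.00763) and higher with SFN (0.24, adjusted p = 0.00533). SEPSECS and PSTK, which make selenocysteine on its tRNA, were under the limit of 1 FPKM and were not tested.

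**Figure D5:**
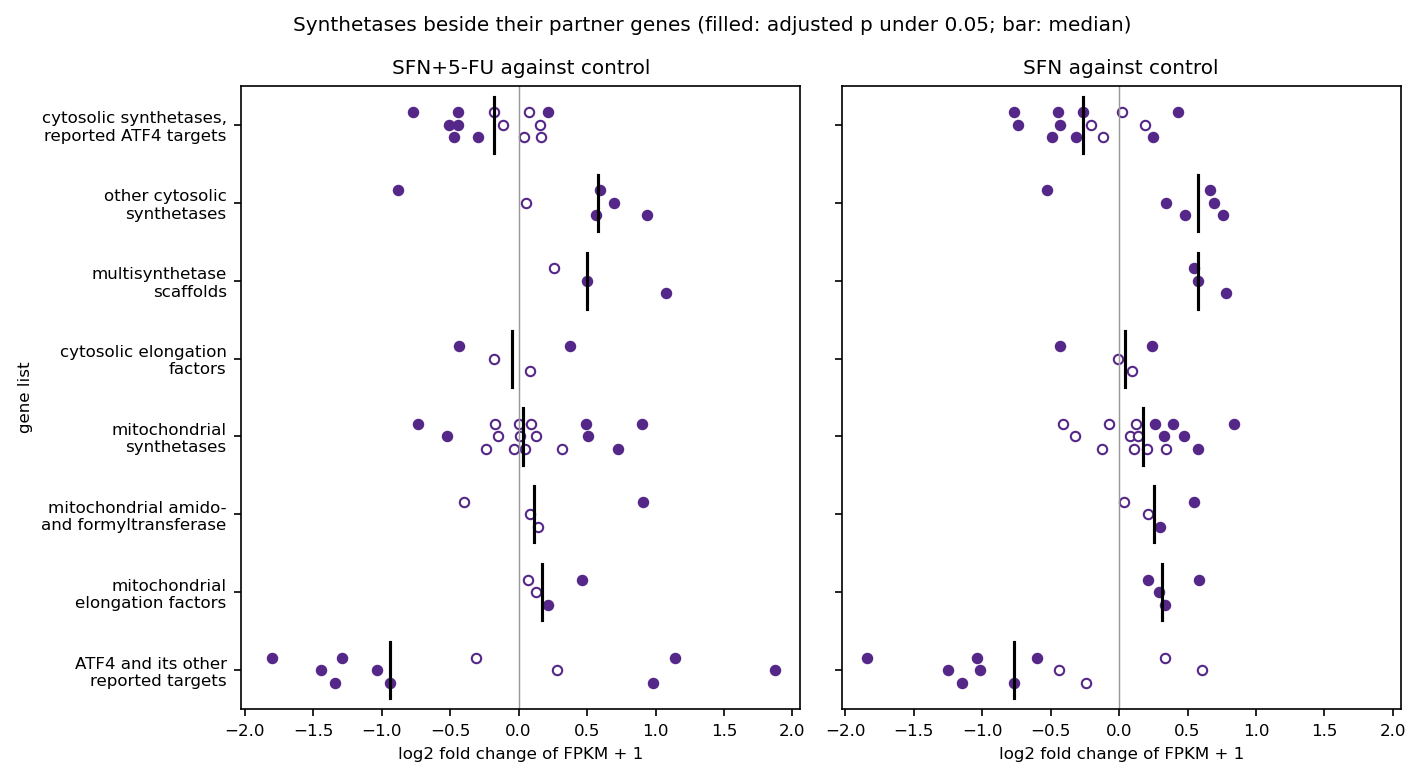
Log2 fold change of FPKM + 1 of each tested gene (points, filled where the adjusted p was under 0.05) and the median (bar) for 8 lists of synthetases and partner genes, in SFN+5-FU against control (left) and SFN against control (right). The median of the cytosolic synthetases reported as ATF4 targets lies below 0 (-0.18 on the left, -0.27 on the right) and that of the other cytosolic synthetases above it (0.58 in both panels).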

How the data were processed

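The deposited table gives FPKM per gene as made by the authors. The tools fastp, StringTie and edgeR are named, per the submitters' processing notes, without versions or roles. Libraries were poly(A)-selected and marked for strand, per the labels' protocols. Aligner, genome build and annotation: not given in the sources used here. FPKM carries 2 decimals (smallest value above 0, 0.01), so depth is unknown and no counting error is given. Column sums were 259184 to 272235.

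The name table held 41002 of the 41041 Ensembl IDs, 29784 of them with a symbol. Genes averaging at least 1 FPKM over the 9 libraries were fitted as log2(FPKM + 1), which understates fold changes of low genes, in 1 limma fit of all groups with a mean-variance trend. P-values are two-sided and Benjamini-Hochberg adjusted within each comparison over the 12662 tested genes. The pipeline was tested on simulated data. Members, gene lists and tests were chosen with earlier results of these data known.

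Values by library are given for the 4 called members of largest fold change per comparison and class, the 2 most abundant of each class, and GARS1 and KARS1. In members picked by fold change, separation of treated from control libraries was largely set by that choice. The values of MARS1, HARS1, RARS1, TARS1, VARS2 and of single partner genes were chosen for printing after they were seen. Replicate numbers were not treated as pairs: deviations from the group means of same-numbered libraries correlated at -0.143 to 0.107 (9 pairs, 1 of them over 0.1). Alternatives changed the filter, pseudocount, scaling, library weights, block and libraries used, and corrected for GC content and length (GENCODE release 29, 12504 genes, 98.8% of those tested, all 35 members). Start windows are from RefSeq, GRCh38.p14. R 4.3.3, limma 3.58.1, Python 3.11.15 and matplotlib 3.10.9 were used.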

Additional observations from a re-analysis of the deposited data

How the results depend on the processing

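Of 360 alternative values of the class counts and medians, 328 stayed within the limits set, and no called synthetase changed direction under any alternative. Of 21 synthetases called with SFN, 16 were called under every alternative that tested them (not LARS1, RARS1, YARS1, EARS2 and PARS2), and of 18 called with SFN+5-FU, 17 were (not NARS1). With SFN the mitochondrial median of 0.17 became 0.33 at a mean of at least 5 FPKM, 0.10 with a pseudocount of 5 and 0.23 with library weights, and the cytosolic median became -0.23 with quantile normalization. With SFN+5-FU the mitochondrial median became 0.31 at a mean of at least 5 FPKM. The cytosolic median with SFN+5-FU, 0.04, turned to -0.14 with quantile normalization, -0.0837 without mitochondrially encoded transcripts and -0.16 with the GC and length correction. The mitochondrial one, 0.03, turned to -0.0691 without mitochondrially encoded transcripts, which shifted the median of all genes by -0.10. The cause was not tested.

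Mitochondrial enzymes called lower with SFN, 0 in the reported fit, were 1 with quantile normalization, 1 without mitochondrially encoded transcripts, 2 with library weights and 2 with the GC and length correction, and 12 were called higher with library weights, which called 69.7% of all genes (38.3% higher, 31.4% lower). Those called lower with SFN+5-FU were 4 with library weights (33.3% of all genes lower), 4 with only the 6 libraries compared and 4 with the GC and length correction. For SFN+5-FU against SFN, library weights gave 6 cytosolic enzymes higher and 5 lower and 2 mitochondrial higher and 8 lower, with 58.7% of all genes called (33.4% higher, 25.3% lower), against 0.00790%. Leaving out 1 library at a time gave with SFN 4 to 10 mitochondrial enzymes higher, 0 to 2 lower and a median of 0.12 to 0.23. With SFN+5-FU it gave 2 to 4 lower. For SFN+5-FU against SFN it gave 0 to 5 cytosolic higher, 0 to 5 lower, 0 to 1 mitochondrial higher, 0 to 9 lower and a mitochondrial median of -0.20 to -0.0604. The highest counts and the medians of 0.23 and -0.20 arose without SFN replicate 2.

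With the replicate number as a block, SFN gave 6 cytosolic enzymes higher and 8 lower and 6 mitochondrial higher and 0 lower. SFN+5-FU gave 5 and 7 and 4 and 2 in the same order, and SFN+5-FU against SFN 0 in each.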
